A study of Mus musculus with 6 samples.

Results

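Among the Muller glia of the rd10 retina, 616 nuclei were chosen because they held RNA of at least 2 of 5 genes, Adamts17, Syt10, Hormad2, Psd2 and Scara5. They were 616 of the 4809 nuclei that met the Muller gate and of the 56205 nuclei that passed the filters in the whole series. The Muller gate asked for at least 2 unique molecular identifiers (UMIs, each a tag for 1 captured RNA molecule) of Abca8a and at least 1 UMI of at least 3 of the 6 genes Rlbp1, Glul, Slc1a3, Aqp4, Ano1 and Kcnj10. Nuclei with UMIs of more than 1 gene were left out for each of 3 lists, a reactive list (Gfap, Gpnmb, Nupr1, Pvt1, Morrbid), an interferon list (Rsad2, Iigp1, Gbp2, Gbp4, Gbp5, Ifi204) and a list led by Tbx5 (Tbx5, Efnb2, Brinp1, Nxph1, Nr2f2). Of the 832 Muller nuclei with at least 2 of the 5 genes, 216 were left out in this way. After the 3 exclusions 3240 Muller nuclei remained, of which 1498 held no UMI of the 5 genes, 1126 held exactly 1 of them and 616 held 2 or more. The 616 nuclei are called marker-positive below and the 1498 are called marker-negative. The measured levels of the 5 genes chose both groups, so those levels are given as a description and were not tested between them.

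All libraries came from retinas of mice of the strain B6.CXB1-Pde6b-rd10/J, in which a defect in the rod phosphodiesterase gene Pde6b leads to loss of rods, so the saline controls carried the same defect. The retinas received an intravitreal injection at P18, of saline in 3 libraries (replicates 1, 2 and 6) or of 20 ng recombinant IL-27 in 3 libraries (replicates 4, 5 and 10), and were collected at P20. There was no uninjected and no wild-type retina, and the labels do not say how many animals went into a library, so the spread between libraries may be partly technical. Each library held 8968 to 9965 barcodes and 36678332 to 48260748 UMIs, of which 8868 to 9885 barcodes passed the filters, and any pair of libraries shared 18 to 30 barcodes.

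Muller glia span the whole thickness of the neural retina, take up glutamate and GABA released by neurons, buffer potassium and water, and recycle retinoid for cones. In a degenerating retina they become reactive, and subsets of Muller glia can differ by position along the dorsal to ventral axis as well as by reactivity. Of the 5 genes, Adamts17 (ENSMUSG00000058145) encodes a secreted metalloproteinase, Syt10 (ENSMUSG00000063260) a calcium-binding synaptotagmin of secretory vesicles, Hormad2 (ENSMUSG00000020419) a protein of the meiotic chromosome axis, Psd2 (ENSMUSG00000024347) an exchange factor for the GTPase ARF6, and Scara5 (ENSMUSG00000022032) a scavenger receptor that takes up ferritin. Abca8a (ENSMUSG00000041828) encodes a transporter of the ABC family linked to lipid export.

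The label of Muller glia was checked on genes that the gate did not use. Dkk3, a secreted protein abundant in Muller glia, was at 1272 ± 126 CPM in marker-positive nuclei, with a UMI in 99.8% of them at a median of 5588 UMIs, against 226 ± 24.6 CPM and 59.5% of amacrine nuclei at a median of 6110 UMIs. Clu was at 434 ± 65.3 CPM, with a UMI in 88.0%, against 49.0 ± 8.40 CPM and 27.3% of amacrine nuclei. The amacrine nuclei were required to hold no Abca8a UMI and few genes of the gate. By medians over libraries, Col9a1 (1530 against 33.6 CPM), Crym (297 against 102) and Sox9 (38.9 against 12.3) were above rods. Other listed genes set Muller nuclei less apart. Vim was at 48.0 against 54.8 CPM in rods, Car2 at 191 against 178 in rods, and Apoe at 1420 against 3988 in microglia. Genes of the gate were present by construction, such as Glul (glutamine synthetase) in 98.2% and Rlbp1 (a carrier of retinaldehyde) in 83.4% of the nuclei. Abca8a was at 1666 ± 319 CPM (UMIs of a gene per 1000000 UMIs summed over the nuclei of a library; SD over 6 libraries) in marker-positive nuclei and at 1376 ± 188 CPM in marker-negative nuclei, a level that the gate had a part in setting.

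Within the 616 nuclei, 500 held exactly 2 of the 5 genes, 103 held 3, 13 held 4 and none held all 5. Scara5 was the most frequent, with a UMI in 58.3% of the nuclei, followed by Syt10 in 54.2%, Adamts17 in 47.6%, Hormad2 in 30.8% and Psd2 in 30.0%. The most frequent pair was Syt10 with Scara5, in 155 nuclei (25.2%), and the rarest was Hormad2 with Psd2, in 37 nuclei (6.01%). Even so, a typical nucleus held very few molecules of these genes, with 489 UMIs of Scara5 and 220 UMIs of Psd2 in all 616 nuclei together. A rule of this kind favours deeper nuclei. The median nucleus held 4156 UMIs where none of the 5 genes was seen, 4906 where 1 was seen, 5588 with 2 and 5303 with 3. Nuclei just inside the threshold, with 2 genes, and those just outside, with 1, therefore differed in depth as well.

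Across all 3240 gated Muller nuclei, without selection on the 5 genes, each gene was low and present in every library. Scara5 had the highest mean, at 53.3 ± 12.7 CPM, with 45.2 CPM in the lowest library and 78.8 CPM in the highest. Syt10 was at 50.1 ± 13.2 CPM and ranged from 32.8 to 68.6 CPM. Adamts17 was at 40.8 ± 8.62 CPM, Hormad2 at 24.7 ± 3.72 CPM and Psd2 at 19.0 ± 6.60 CPM. The ranges of Scara5, Syt10 and Adamts17 overlapped, and those of Hormad2 and Psd2 overlapped as well. These levels count captured molecules and are not scaled by gene length, and the rate of capture was not compared between genes. Their order among genes may therefore differ from that of the transcript numbers.

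Other retinal classes, assigned by marker genes with no Abca8a UMI, differed in which of the 5 genes they carried. Hormad2 and Scara5 were close to absent outside Muller nuclei. In rods Hormad2 had a UMI in 0.172% of 11041 nuclei at a median of 1350 UMIs, against 10.2% of the gated Muller nuclei at a median of 4622 UMIs, and in amacrine nuclei, which were deeper than Muller nuclei with a median of 6110 UMIs, Hormad2 had a UMI in 0.521% and Scara5 in 1.47%. Adamts17 and Psd2 were not particular to Muller glia, since amacrine nuclei held 33.6 ± 4.17 CPM of Adamts17 and 35.8 ± 3.51 CPM of Psd2, and bipolar nuclei held 20.8 ± 2.37 CPM of Adamts17. Syt10 was at 19.5 ± 5.87 CPM in amacrine nuclei and at 1.83 ± 0.558 CPM in bipolar nuclei. Muller nuclei with UMIs of at least 2 genes of the Tbx5 list formed a further group only if they held at most 1 of the 5 genes (416 nuclei). That limit left out 65 of 481 nuclei and lowers the levels of the 5 genes by construction, so these levels were not tested. All 5 genes had a lower mean there than in the gated Muller nuclei, with Syt10 at 11.2 ± 7.51 CPM, Scara5 at 17.2 ± 4.16 CPM and Adamts17 at 16.7 ± 12.2 CPM.

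**Figure D1:**
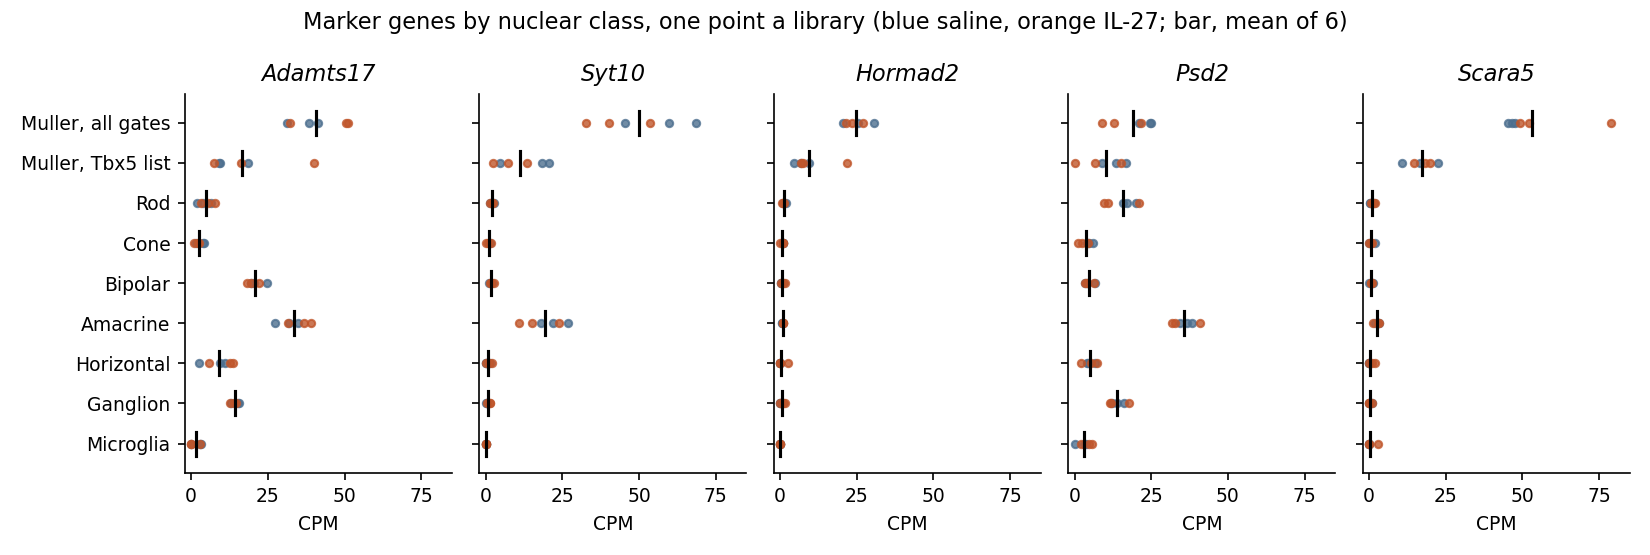
Level of each of the 5 marker genes (x axis, CPM) by nuclear class (y axis), with a point for each of 3 saline and 3 IL-27 libraries and a bar at the mean of 6. Hormad2 and Scara5 are near 0 outside Muller nuclei, whereas amacrine nuclei hold 33.6 CPM of Adamts17 and 35.8 CPM of Psd2.

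Whether the 5 genes go together was measured for each gene in turn, with nuclei holding at least 2 of the other 4 genes paired by depth, within a library, to nuclei holding none of those 4. Scara5 was higher in nuclei chosen by the other 4 genes in 6 of 6 libraries. Its level was 45.9, 75.3 and 66.2 CPM in the saline libraries and 44.8, 64.5 and 94.8 CPM in the IL-27 libraries, against 29.6, 57.3 and 33.1 CPM and 34.1, 54.1 and 40.4 CPM in the paired nuclei. The mean difference was 0.64 ± 0.38 (SD, n = 6) on the log2(CPM + 1) scale, with p = 0.031 in a two-sided exact sign-flip permutation test, the smallest that 6 libraries allow, and an adjusted p of 0.156 over the 5 genes.

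The other 4 genes were higher in some libraries and lower in others. Syt10 was at 46.5 ± 18.7 CPM in nuclei chosen by the other genes and at 41.7 ± 17.2 CPM in the paired nuclei, higher in 4 of 6 libraries (log2 difference 0.21 ± 1.10, exact permutation p = 0.625, adjusted p = 0.859). Hormad2 was at 25.6 ± 8.63 and 21.3 ± 10.8 CPM, higher in 3 of 6 (exact permutation p = 0.688). Psd2 was at 21.1 ± 12.3 and 16 ± 6.97 CPM, higher in 4 of 6 (exact permutation p = 0.5). Adamts17 was at 38.9 ± 13.3 and 37.5 ± 12.7 CPM, higher in 3 of 6 (exact permutation p = 0.875). Thus no gene passed the adjusted test. With 6 libraries 1 gene alone could not pass it even at the smallest p, so that test cannot decide for Scara5. For 4 of the 5 the difference between depth-paired nuclei was smaller than its spread between libraries. Between 50 and 125 UMIs over the 6 libraries stood behind each of these values. Since 4 of the 5 genes moved both ways between libraries, the 616 nuclei are described by their rule, and not as a cell type of their own.

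**Figure D2:**
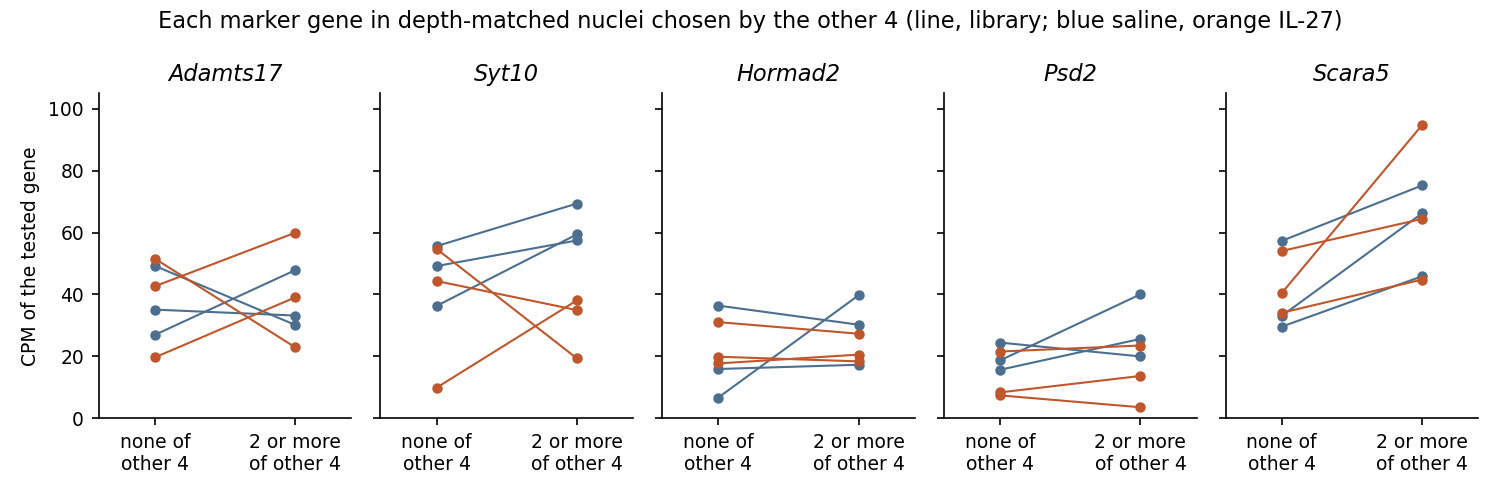
Level of each marker gene (y axis, CPM) in nuclei with none of the other 4 genes and in depth-paired nuclei with 2 or more of them, with a line for each of 3 saline and 3 IL-27 libraries. All 6 lines rise for Scara5, while lines cross for the other 4 genes.

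Other genes differed between marker-positive nuclei and marker-negative nuclei of the same depth. Each of the 616 nuclei was paired with a marker-negative nucleus of its own library, which gave medians of 5241 to 6953 UMIs per library on the marker-positive side and 5155 to 6640 on the other. Counts were summed per library and group and tested with edgeR with the library as a block. Leaving out the genes of the rule, 118 of 7771 genes (1.52%) were higher in marker-positive nuclei and 83 (1.07%) were lower at an adjusted p under 0.05. With library totals in place of the TMM scaling the split was 77 higher and 100 lower. The 5 genes were picked with results of the same nuclei known, so these counts describe the nuclei and are no independent support for a separate state. Under stricter settings the counts shrank. They were 51 higher and 35 lower with DESeq2, 49 and 48 without nuclei that Scrublet scored as doublets, and 37 and 29 without nuclei that held markers of other cells. The nuclei kept in that last setting held at most 1 of 7 cone markers and at most 3 of 8 bipolar markers. They also held at most 1 of 7 genes (Fbln1, Frmpd4, Reln, Csmd3, Nox4, Opcml and Bmp2), of which the study names the first 5 for a Muller cluster. Rod, ganglion cell and amacrine markers were not used in that setting. Of the 201 genes, 171 could be tested in that setting, 166 of them in the same direction, and 48 were among the 66 called. Without doublets 169 could be tested, 169 of them in the same direction, and 66 were among the 97 called. Both settings held fewer nuclei, and their shares over all genes tested are not given here.

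Among the 12 named genes that were higher in marker-positive nuclei, Frzb, a secreted Wnt antagonist, ranged from 82.3 to 132 CPM over the 6 libraries with a median of 98.4 CPM, against 44.9 to 72.0 CPM with a median of 62.7 CPM in the paired nuclei (log2FC 0.78 ± 0.13 SE, edgeR adjusted p = 0.00115). The groups did not overlap. Galnt18, of the family that starts mucin-type O-glycosylation, ranged from 388 to 565 CPM against 297 to 363 CPM (log2FC 0.61 ± 0.08, edgeR adjusted p = 5.7e-05), again without overlap. Parm1, a mucin-like membrane protein, had the largest fold change of the named genes, at 42.2 ± 9.49 against 19.1 ± 6.59 CPM (log2FC 1.10 ± 0.21, edgeR adjusted p = 0.00304), and its ranges overlapped slightly, from 30.4 to 57.0 against 13.1 to 32.0 CPM. Pcsk5, a proprotein convertase, was at 238 ± 30.3 against 154 ± 39.5 CPM and Arhgef28, an exchange factor for RhoA, at 110 ± 29.0 against 67.7 ± 15.3 CPM, neither with overlap. Trhde, the ectoenzyme that degrades thyrotropin-releasing hormone, was at 189 ± 80.3 against 113 ± 43.0 CPM, and Il15, a cytokine, at 125 ± 13.5 against 81.6 ± 20.3 CPM. Spc25 (a kinetochore protein), Bmp5 (a BMP ligand), Agmo (which cleaves ether lipids), Gk (glycerol kinase) and Tmem56 completed the 12 named genes, with log2FC from 0.53 to 0.60. All 12 were higher in 6 of 6 libraries. Not all calls were stable, since Tmem56 lost its call in 10 of 14 alternatives, Agmo and Bmp5 in 8 of 14 and Gk in 8 of 15. All 4 lost it without saline replicate 6, and each but Gk when saline replicate 2 or IL-27 replicate 4 was left out. Arhgef28 and Il15 lost theirs without nuclei that held markers of other cells and with at least 3 marker genes.

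The decreased genes included several that neurons express. Cngb3, the beta subunit of the cone cyclic nucleotide-gated channel, was the most decreased of the named genes, at 16.2 to 51.3 CPM with a median of 33.3 CPM against 49.1 to 130 CPM with a median of 95.8 CPM (log2FC -1.43 ± 0.15 SE, edgeR adjusted p = 2.9e-06). Fbn2, which encodes the microfibril protein fibrillin-2, ranged from 59.3 to 76.5 CPM against 108 to 176 CPM (log2FC -0.95 ± 0.12, edgeR adjusted p = 5.7e-05), and the groups did not overlap. Ephb2, an ephrin receptor that is higher in ventral than in dorsal retina, ranged from 47.5 to 85.8 CPM against 103 to 158 CPM (log2FC -0.83 ± 0.14, edgeR adjusted p = 0.000704), also without overlap. Fbn2 lost its call without nuclei that held markers of other cells, and both lost it with at least 3 marker genes. Pcdh7 and Cdh18, both cadherins, were at 164 ± 37.7 against 323 ± 124 CPM and at 190 ± 112 against 381 ± 258 CPM, with overlapping ranges. Ntrk2 (the BDNF receptor), Syt9, Rab3c (both of secretory vesicles), Slc24a4 (a sodium, calcium and potassium exchanger), Ddr2 (a collagen receptor), Dync1i1 (a dynein subunit) and Plch2 (a phospholipase C) were also lower in 6 of 6 libraries, with log2FC from -0.80 to -1.33. Plch2 and Rab3c lost their call in 5 of 11 alternatives, Slc24a4 and Ntrk2 in 3 of 12 and Cdh18 in 2 of 13. Dync1i1, Syt9 and Pcdh7 lost theirs in 1 of 11, 12 and 15.

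**Figure D3:**
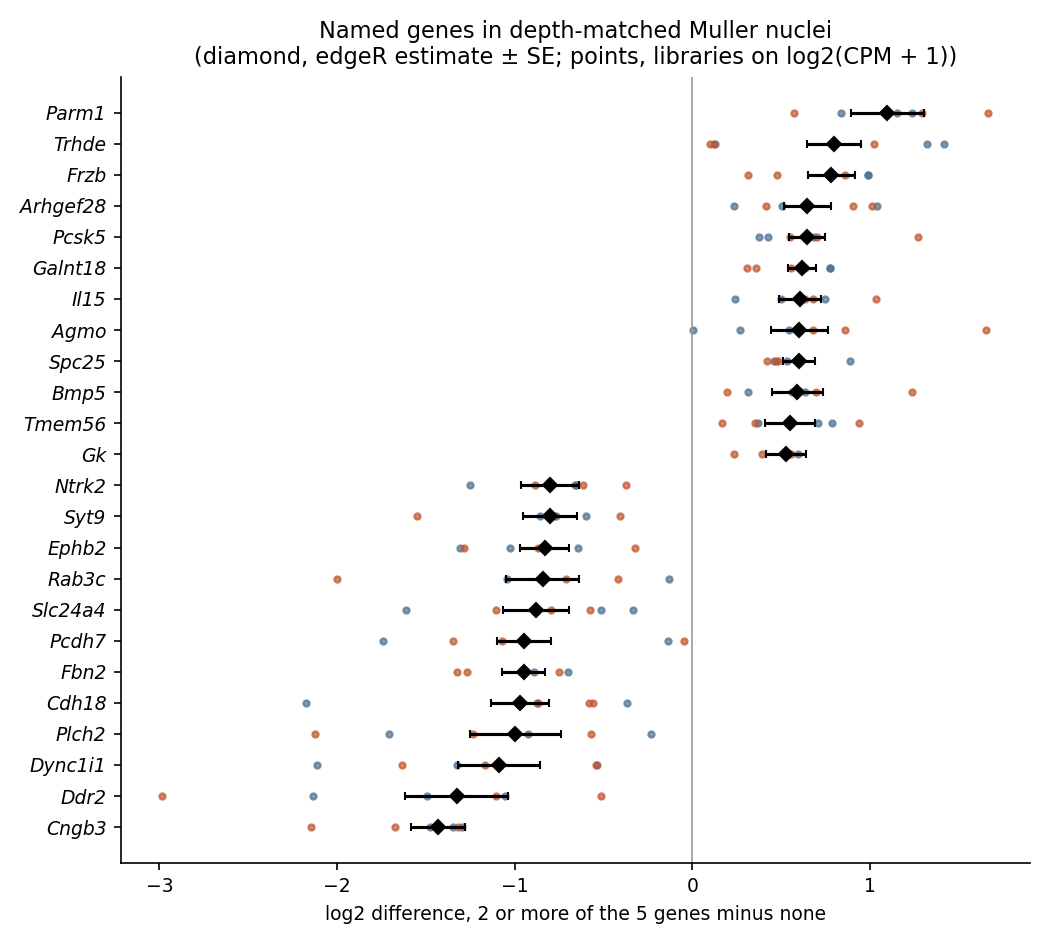
Difference of the 24 named genes between marker-positive and depth-paired marker-negative Muller nuclei (x axis, log2), with the edgeR estimate and its SE as a diamond and the 6 libraries as points (log2 of CPM + 1). Parm1 at 1.10 and Cngb3 at -1.43 are the ends of the range, and all points lie on the side of their estimate.

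These differences could be followed by the number of marker genes, without pairing by depth. Fbn2 was at 132 ± 28.3 CPM in nuclei with none of the 5 genes, at 105.2 ± 31.4 CPM with 1 and at 68.9 ± 13.9 CPM with 2. Ddr2 was at 25.2 ± 4.23, 15.8 ± 6.49 and 9.58 ± 6.36 CPM in the same order. Galnt18 was at 353 ± 41.8, 412 ± 42.7 and 481 ± 72.4 CPM, and Pcsk5 at 161 ± 25.4, 212 ± 40.6 and 229 ± 42.3 CPM. Of the 24 named genes, 19 had means in the order of their difference over none, 1 and 2 marker genes, and 13 kept it to 3 or more. These genes were chosen for a difference between none and 2 or more in the same nuclei. Most of the marker-positive nuclei held exactly 2, so the choice largely set the order of none and 2. The tally is a description and no independent support. Depth rose from none to 2 as well. With 3 or more, where each library held few nuclei, Ephb2 stood at 92.6 ± 54.7 CPM against 59.6 ± 16.8 CPM with 2, Trhde at 136 ± 120 against 199 ± 82.1 CPM and Pcdh7 at 195 ± 193 against 160 ± 58.6 CPM. Frzb did not follow the order, with 66.8 ± 6.19 CPM at none, 61.2 ± 14.8 CPM at 1 and 103 ± 12.1 CPM at 2. Cngb3 did not either, with 67.2 ± 21.1, 73.1 ± 39.4 and 25.5 ± 12.6 CPM, and 56.4 ± 57.5 CPM with 3 or more.

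Transcripts of some other cell types moved with the contrast, in both directions. The summed level of 8 bipolar markers was 1141 to 2297 CPM in marker-positive nuclei and 1417 to 3415 CPM in the paired nuclei, and higher in marker-positive nuclei in 1 of 6 libraries. For 7 cone markers the ranges were 69.8 to 178 and 60.4 to 353 CPM (higher in 2 of 6), for 7 ganglion cell markers 48.7 to 85.5 and 86.4 to 118 CPM (higher in 0 of 6), and for 9 rod markers 522 to 871 and 444 to 1271 CPM (higher in 2 of 6). A list of 7 genes (Fbln1, Frmpd4, Reln, Csmd3, Nox4, Opcml and Bmp2) was at 78.9 to 424 and 158 to 746 CPM (higher in 1 of 6). The study names the first 5 for its saline-enriched Muller cluster. It does not name Opcml, and it gives Bmp2 as lower in Muller cells after IL-27. None of the markers in these 5 lists was at 0 in either group. In the other direction, 8 Muller genes outside the gate (Apoe, Clu, Col9a1, Crym, Dkk3, Car2, Sox9 and Vim) were at 4731 to 5612 against 4430 to 5009 CPM, higher in 6 of 6. For 6 endothelial markers the ranges were 1539 to 1921 against 1482 to 1646 CPM (higher in 6 of 6) and for 6 astrocyte markers 97.4 to 123.5 against 65.8 to 115.1 CPM (higher in 5 of 6). Amacrine markers were at 692 ± 50.7 against 689 ± 52.9 CPM (higher in 3 of 6) and horizontal cell markers at 143 ± 44.3 against 142 ± 24.3 CPM (higher in 2 of 6). Scrublet scored 15.8% of the marker-positive, 14.0% of the marker-negative and 28.8% of the Tbx5-list nuclei among its top 8% of a library. The part of RNA from other cells in the decreased genes was not tested, beyond the counts without such nuclei given above.

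The counts in the following lists stand beside 1.52% of all genes tested that were higher and 1.07% that were lower. Muller homeostasis had 24 tested members outside the rule, of which 4 rose and 1 fell, with a median log2FC of 0.17 beside -0.000686 for all genes tested. Slc1a2, a glutamate transporter, was at 301 ± 51.0 against 232 ± 44.4 CPM (edgeR adjusted p = 0.00679), and Slc6a11, the GABA transporter GAT3, at 329 ± 46.9 against 264 ± 36.1 CPM (edgeR adjusted p = 0.0215). Apoe and Clu, both lipid-carrying apolipoproteins, also rose, with log2FC of 0.33 and 0.32, while Crym, which binds thyroid hormone, fell by 0.29. Of 17 lipid genes 5 rose and none fell, including Abca8b, a neighbour of Abca8a in sequence and possibly sharing its reads, at 651 ± 184 against 476 ± 129 CPM (log2FC 0.49). Of 19 genes for scavenger receptors, iron and phagocytosis, Itgb5 and Megf10 (which recognise apoptotic cells) rose and Cp (ceruloplasmin, a ferroxidase) fell, from 2204 ± 315 in the paired nuclei to 1718 ± 199 CPM (log2FC -0.33, edgeR adjusted p = 0.000393), lower in 6 of 6 libraries.

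Of 51 synaptic adhesion and guidance genes, in the longest of the lists, 10 were lower and 5 higher, again beside 1.07% and 1.52% of all genes, with a median log2FC of -0.21. Without nuclei that held markers of other cells, 4 of 37 were lower, 2 were higher and the median was -0.00245. The shares over all genes in that setting are not given here, so these counts cannot be read as an excess. Cntn4 was at 224 ± 84.0 against 355 ± 134 CPM, lower in 6 of 6, while Lsamp, the most abundant gene of the list and an adhesion molecule, was at 7385 ± 665 against 5754 ± 709 CPM (log2FC 0.40 ± 0.05, edgeR adjusted p = 2.2e-05), higher in 6 of 6. Of 13 synaptotagmin and vesicle genes, Syt1 and Syt9 fell and none rose. Of 14 ARF exchange factors and related genes none passed the test, and only 1 of 18 genes of the meiotic axis list, Sycp3, was high enough to test and did not pass (25.9 ± 12.9 against 28.9 ± 7.94 CPM). Among 22 genes for extracellular matrix and ADAMTS proteins, Adamtsl1 (log2FC 0.40) and Col23a1 rose, and Fbn2 and Col4a6 fell.

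Among genes that pattern the retina, 1 of 5 ventral genes passed (Ephb2, lower), and Chrdl1, Bmpr1b and Nr2f1 did not. Of 4 dorsal genes outside the rule none passed, with Aldh1a1 at 112 ± 31.0 against 106 ± 26.2 CPM. Of 6 nasal and temporal genes Epha4 and Epha5 rose, with log2FC of 0.34 and 0.27. In the reactive direction, Lcn2 was at 45.4 ± 21.5 against 103 ± 89.8 CPM (log2FC -0.97, edgeR adjusted p = 0.00298), lower in 5 of 6 libraries, and Cp was lower as above, while none of the other 11 of 13 gliosis genes passed. No gene passed among 32 interferon-response, 17 gp130 and STAT, 21 glycolysis, 11 Notch, 9 immediate early and heat shock, 9 channel or 7 retinoid genes. In the Wnt list 1 of 17 passed (Tcf7l1, higher), in the BMP and TGF-beta list 1 of 19 (Bmp5, higher), and in the FGF and ERK list 3 of 18 (Egfr and Fgf13 higher, Erbb4 lower, the last in 5 of 6 libraries). Exclusion of interferon-rich and reactive nuclei from both groups limits what the interferon and gliosis lists can show.

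Marker-positive nuclei were also compared with the Muller nuclei of the Tbx5 list, at most 1 marker-positive nucleus for each, paired by depth within a library (40 to 98 pairs). Pairing did not equalise the summed UMIs. These were 455939 in marker-positive against 658657 in Tbx5-list nuclei of saline replicate 6, and 579919 against 743312 in IL-27 replicate 4. Only in IL-27 replicate 10 was the marker-positive sum the larger. Here 413 of 7250 genes (5.7%) were higher in marker-positive nuclei and 475 (6.55%) lower. The Muller homeostasis list had 10 of 23 genes higher and none lower (median log2FC 0.33), among them Sox9, a transcription factor of Muller glia, at 38.4 ± 9.81 against 19.2 ± 9.88 CPM, and Slc16a1, a lactate transporter, at 69.9 ± 12.0 against 32.8 ± 9.86 CPM. Of 10 Notch genes 3 were higher, namely Hey2, Notch1 and Notch2. Of 23 interferon-response genes 10 were higher and none lower (median log2FC 0.49), such as Gbp6 at 70.1 ± 20.9 against 39.4 ± 12.8 CPM. Without Scrublet doublets the totals were 188 and 146, and 2 of 22 interferon genes were higher. The number of genes tested in that setting is not given here, so the 2 have no share over all genes beside them.

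The 6 named genes that were higher in marker-positive nuclei of this comparison were Sh3tc2, Lama2 (a laminin chain), Etnppl (a phospholyase of phosphoethanolamine), Ap1s2 (a subunit of the clathrin adaptor AP-1), Agmo and Emid1. Ap1s2 ranged from 125 to 336 CPM with a median of 236 CPM against 51.1 to 113 CPM with a median of 74.6 CPM (log2FC 1.56 ± 0.14 SE, edgeR adjusted p = 9.4e-06), without overlap. Agmo was higher in both comparisons, here at 90.4 ± 24.7 against 31.6 ± 8.96 CPM. The 6 that were lower, Frmpd4, Cntn3, Ebf3, Lrfn5, Ralyl and Myo16, had log2FC from -1.96 to -2.63. Ralyl, an RNA-binding protein, ranged from 41.2 to 189 CPM against 289 to 655 CPM. Frmpd4, which binds PSD-95, was at 14.0 ± 9.42 against 99.7 ± 49.7 CPM, with no overlap. Of 52 synaptic adhesion genes 28 were lower and 4 higher (median log2FC -0.62). The 28.8% of Tbx5-list nuclei that Scrublet scored high stand beside these values, and without such nuclei 9 of 31 were lower. The share over all genes in that setting is not given here, so 9 of 31 cannot be read as an excess.

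The share of marker-positive nuclei was lower on average after IL-27, but the groups overlapped. Of the gated Muller nuclei, 22.2%, 16.8% and 23.0% were marker-positive in saline replicates 1, 2 and 6, and 17.9%, 15.98% and 13.7% in IL-27 replicates 4, 5 and 10. Saline replicate 2 lay below IL-27 replicate 4. The exact 95% binomial interval of the highest share was 19.9 to 26.3% and that of the lowest 10.1 to 18.1%, which covers counting error only. On average the share was 20.7% ± 3.38 after saline and 15.9% ± 2.10 after IL-27 (SD over 3 libraries), or -4.78 points apart (two-sided exact permutation p = 0.2, where 3 against 3 cannot go below 0.1). When each nucleus was thinned to 2000 UMIs, which left out 33 saline and 25 IL-27 nuclei, the shares were 5.63% ± 1.80 and 4.32% ± 0.954 (exact permutation p = 0.3). With at least 3 of the 5 genes required, the shares were 4.24% ± 0.780 and 2.50% ± 0.422 (exact permutation p = 0.1), with 3.76 to 5.14% after saline and 2.24 to 2.99% after IL-27, which did not overlap. These nuclei were not thinned. The median depth of gated Muller nuclei was 4687 to 4895 UMIs in the saline libraries and 4412 to 4470 in the IL-27 libraries. The part of depth in this difference was not tested. The share of thinned nuclei with at least 1 of the 5 genes was 30.9% ± 2.74 and 30.2% ± 3.14 (exact permutation p = 0.7).

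**Figure D4:**
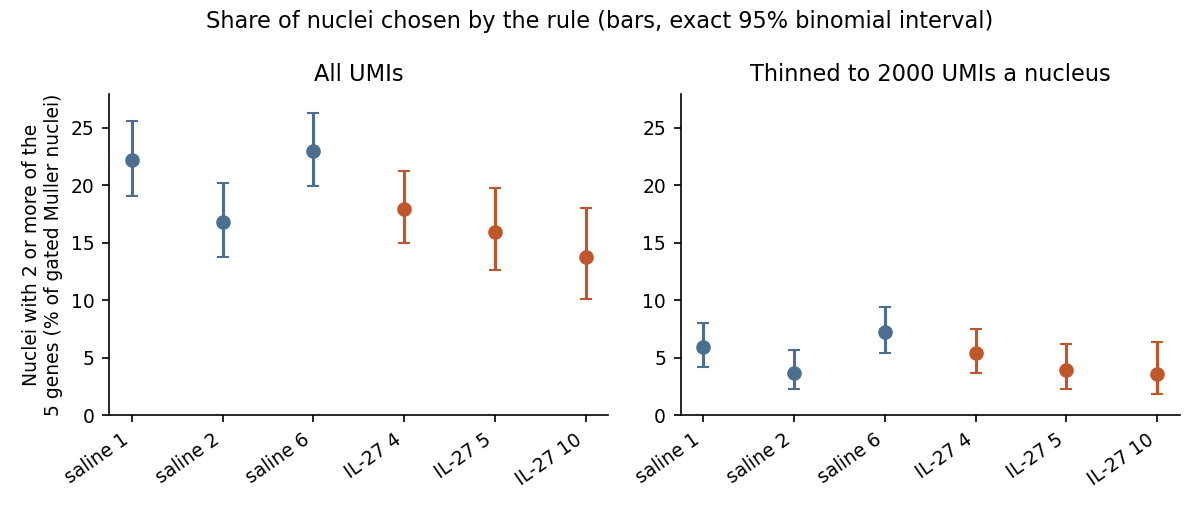
Share of gated Muller nuclei with 2 or more of the 5 marker genes (y axis, percent) in each library, with all UMIs and after thinning to 2000 UMIs a nucleus (bars, exact 95% binomial interval). Saline replicate 2, at 16.8%, lies among the IL-27 libraries, at 13.7 to 17.9%.

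The levels of the 5 genes after IL-27 were tested over all gated Muller nuclei, so that selection on them played no part. None passed. Syt10 was at 68.6, 45.3 and 59.9 CPM after saline and at 53.7, 40.4 and 32.8 CPM after IL-27 (log2FC -0.42, edgeR adjusted p = 0.971). Psd2 was at 24.8, 24.8 and 21.1 CPM after saline and at 21.6, 13.0 and 8.83 CPM after IL-27, with overlap (log2FC -0.61, unadjusted p = 0.0384 and adjusted p = 0.971 in edgeR). Scara5 was at 47.5, 46.7 and 45.2 CPM after saline and at 49.3, 52.0 and 78.8 CPM after IL-27, without overlap (log2FC 0.35, edgeR adjusted p = 0.971). Adamts17 had a log2FC of 0.30 and Hormad2 of -0.07. The 5 genes thus did not share a direction. Abca8a, which the gate itself required, was at 1702, 1595 and 1450 CPM after saline and at 1584, 1327 and 1141 CPM after IL-27, with overlap.

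Within the marker-positive nuclei, 2 of 7800 genes (0.0256%) differed between IL-27 and saline, both higher. Adamts19, a secreted metalloproteinase of the same family as Adamts17, was at 32.5, 24.5 and 15.2 CPM after saline and at 258, 318 and 295 CPM after IL-27 (log2FC 3.60 ± 0.23 SE, edgeR adjusted p = 1.1e-05). Foxp2, a forkhead transcription factor, was at 223, 185 and 165 CPM and at 393, 397 and 478 CPM (log2FC 1.15 ± 0.16, edgeR adjusted p = 0.0302). For each gene all 3 IL-27 libraries lay above all 3 saline libraries. The summed nuclei of a library held 315825 to 986845 UMIs, so that 1 UMI stood for 1.01 to 3.17 CPM, and IL-27 replicate 10, with 43 nuclei, was the shallowest. The call for Adamts19 held without any 1 library, while that for Foxp2 was lost without saline replicate 1, 2 or 6 or IL-27 replicate 4 or 5.

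Prss56, a serine protease of Muller glia, had no UMI in the marker-positive nuclei of any saline library and stood at 28.8, 71.9 and 193 CPM after IL-27. Its mean of 98.0 ± 85.2 CPM was at least 78.7-fold higher than the limit that a count of 0 allows over the saline group (3 UMIs in 2411134), but the edgeR adjusted p was 0.0752, and it passed in 7 of 13 alternatives. Ror2, a Wnt receptor, was at 40.3, 43.4 and 34.5 CPM after saline and at 78.5, 99.7 and 124 CPM after IL-27 (log2FC 1.34, edgeR adjusted p = 0.0946). A list of 14 Muller genes was taken from those the study names for IL-27 on these samples, mostly as higher, so their shared direction is not independent evidence. Of the 12 that could be tested outside the rule, 1 passed (Adamts19), all 12 had a log2FC above 0 (median 0.62 beside 0.00119 for all genes tested), and in 8 the IL-27 libraries all lay above the saline libraries, against 373 of 7800 genes (4.78%). Among these 8, Nkd1 (a Wnt inhibitor) was at 42.7 ± 14.2 and 73.2 ± 11.3 CPM, Rdh10 (a retinol dehydrogenase) at 130 ± 23.7 and 188 ± 36.2 CPM, and Trim9 at 421 ± 26.5 and 569 ± 84.2 CPM (edgeR adjusted p = 0.966 for each). Bmp2 was too low to test. Sned1, a matrix protein that the study names as lower and that the list does not hold, was at 121 ± 8.72 after saline and 85.03 ± 11.8 CPM after IL-27, without overlap (log2FC -0.49, edgeR adjusted p = 0.987). No gene was called lower, and those with the smallest p, Olfm3, Tshz3 and Lrp2, had an edgeR adjusted p of at least 0.468.

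**Figure D5:**
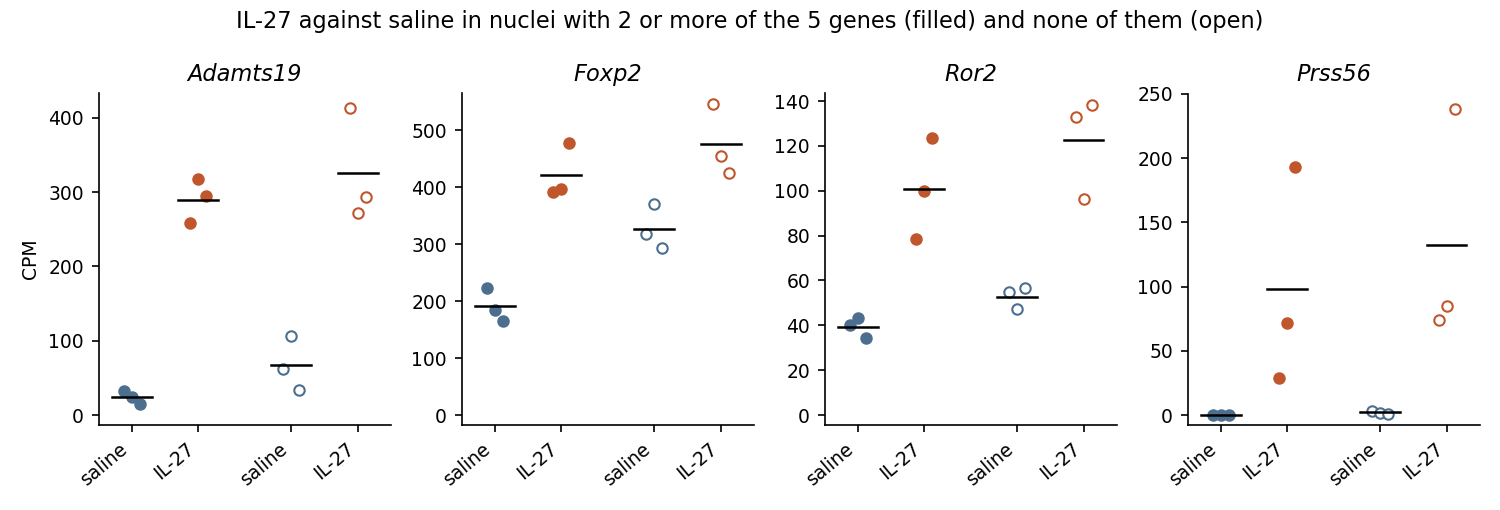
Level of 4 genes (y axis, CPM) after saline and IL-27 in marker-positive nuclei (filled) and in depth-paired marker-negative nuclei (open), 3 libraries a group, with a bar at the mean. Adamts19 rose from 24.1 to 290 CPM in marker-positive nuclei and stood at 66.9 and 326 CPM in marker-negative nuclei.

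Adamts19 was the only gene of the lists that passed under IL-27 in the marker-positive nuclei. Of 31 interferon-response genes none passed, 26 had a log2FC above 0, and the median was 0.26. Of 24 Muller homeostasis genes none passed and the median was -0.15, of 13 gliosis genes none passed and the median was 0.18, and of 17 gp130 and STAT genes none passed and the median was 0.08. At an unadjusted p under 0.05, 369 of 7800 genes were found.

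In all 3240 gated Muller nuclei, where the marker genes were not used, 5 of 13515 genes (0.037%) passed, all higher after IL-27. These were Prss56 (4.21 ± 3.51 to 129 ± 103 CPM), Foxp2 (254 ± 42.0 to 511 ± 36.3 CPM), Adamts19 (59.1 ± 30.8 to 367 ± 124 CPM), Atp2b4, a plasma membrane calcium pump (52.2 ± 3.27 to 103 ± 18.1 CPM), and Ror2 (51.0 ± 6.98 to 135 ± 45.3 CPM), with edgeR adjusted p of 0.035 to 0.0439. These calls were near the threshold, since edgeR called none of them without Scrublet doublets or with library totals, while 651 genes had an unadjusted p under 0.05 and DESeq2 called 11. Of the study's list Prss56, Adamts19 and Ror2 passed, and all 12 tested had their IL-27 libraries above the saline libraries, against 595 of 13515 genes (4.4%).

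The response of these 5 genes was then compared between marker-positive and depth-paired marker-negative nuclei with an interaction term. Adamts19 was higher after IL-27 in both, with 66.9 ± 36.5 and 326 ± 75.7 CPM in marker-negative nuclei, and its log2 response was larger by 1.15 ± 0.31 (SE) in marker-positive nuclei, where its saline level was lower (unadjusted p = 0.00129, adjusted p = 0.604 in edgeR). Foxp2 was at 327 ± 39.3 and 476 ± 62.9 CPM in marker-negative nuclei (difference of responses 0.58 ± 0.18, edgeR adjusted p = 0.96). For Prss56 the difference was 2.98 ± 1.34 (edgeR adjusted p = 0.996), with marker-negative nuclei at 2.08 ± 1.18 and 132 ± 92.1 CPM. For Ror2 and Atp2b4 the responses differed by 0.15 ± 0.29 and 0.08 ± 0.31 on the log2 scale. Across 8857 genes, 3 (0.0339%) had a response that differed between the groups, namely Lrfn5, Egfem1 and Etl4.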

How the data were processed

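The authors sequenced nuclei of frozen rd10 retinas with the 10x Genomics Chromium kit and deposited whole UMI counts for each barcode called by Cell Ranger (version 9.0.1 in the submitters' processing notes and 8.0.1 in the file headers), without normalization. The genome build is not given in the sources used here.

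A nucleus was kept if its UMIs exceeded 500, its detected genes reached 200 and its mitochondrial share stayed below 5%. Doublets were kept in the main analysis and left out, as the top 8% of a library by Scrublet score (scanpy 1.11.5), in an alternative. Counts were summed per library and group of nuclei, and low genes were removed by filterByExpr (minimum count 10). The quasi-likelihood test of edgeR 4.0.16 (R 4.3.3) was run after TMM scaling, with Benjamini-Hochberg adjustment over all genes tested and a threshold of 0.05. Comparisons within a library had the library as a block, after pairing nuclei by log2 UMIs (scipy 1.17.1). The members and lists were chosen with earlier results of these data known.

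Genes named for marker-positive against marker-negative nuclei were, per direction, the 12 with the largest change (6 for the Tbx5 list) among those that passed, had a mean of at least 20 CPM in the higher group and moved alike in 6 libraries. For IL-27 they were those that passed with libraries that did not overlap, or else the 3 with the smallest p. Further names were the 5 marker genes, up to 4 genes of highest level in a list, and genes the study names; list genes outside these were named for having passed, after their values were seen. On simulated data, 200 genes with a mean of at least 10 UMIs were changed by a log2 of 1.5. For marker-positive against marker-negative nuclei edgeR recovered 182 with 11 false calls (7633 genes). For IL-27 in marker-positive nuclei it recovered 154 with 15 false calls (7488 genes). The simulated libraries differed only in depth and random spread. Smaller changes and changes in genes with fewer UMIs were not simulated, so their recovery is not known. DESeq2 1.42.0 was an alternative.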

Additional observations from a re-analysis of the deposited data

Results flagged for a closer look

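In 3 genes the response to IL-27 differed between marker-positive and depth-paired marker-negative nuclei by an interaction test. Lrfn5, a synaptic adhesion protein, was at 19.0, 24.5 and 20.3 CPM after saline and at 73.7, 13.9 and 53.8 CPM after IL-27 in marker-positive nuclei, and at 133, 58.6 and 134 CPM after saline and 43.2, 23.5 and 34.5 CPM after IL-27 in marker-negative nuclei (difference of log2 responses 2.93, edgeR adjusted p = 0.00289). Egfem1 had a mean of 32.5 ± 18.1 CPM after saline and 66.5 ± 45.7 CPM after IL-27 in marker-positive nuclei, against 100.1 ± 42.7 and 37.2 ± 11.9 CPM in marker-negative nuclei (difference 2.59, edgeR adjusted p = 0.00289). Etl4 had means of 132 ± 22.8 and 159 ± 15.3 CPM against 281 ± 39.9 and 148 ± 29.3 CPM (difference 1.19, edgeR adjusted p = 0.0479). In each gene the larger change was a lower level after IL-27 in the marker-negative nuclei, and in all 3 genes the libraries of marker-positive nuclei overlapped between treatments. DESeq2 called none of the 3, and all 3 calls were lost without IL-27 replicate 4 and with at least 3 marker genes. Etl4 was the least stable, and lost its call in 9 of 14 alternatives, also without IL-27 replicate 10, saline replicate 2 or saline replicate 6, without doublets, with library totals and without pairing by depth. The share of RNA from other cells in these changes was not tested.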

How the results depend on the processing

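Between marker-positive and marker-negative nuclei, the 201 calls became 86 with DESeq2, 97 without Scrublet doublets, 89 without nuclei outside 2 MADs of the median depth, 66 without nuclei that held markers of other cells (chosen after seeing the data), 11 with at least 3 marker genes and 338 without a filter on low counts, and 109 to 227 without 1 library each (129, 109 and 125 without saline replicates 1, 2 and 6). Cngb3, Ddr2, Frzb, Galnt18 and Parm1 passed in every setting in which they could be tested. These were 15 alternatives for Galnt18, 14 for Frzb and Parm1, 12 for Cngb3 and only 8 for Ddr2. Against the Tbx5 list, the 888 calls became 424 with DESeq2, 334 without doublets, 28 with at least 3 marker genes, 1361 without pairing by depth and 518 to 956 without 1 library (518 without IL-27 replicate 4), and the 12 named genes passed in all settings where tested (from 9 alternatives for Ebf3 to 14 for Ap1s2). The lower counts with at least 3 marker genes come with fewer nuclei, and the cause of the other changes was not tested. For IL-27 in marker-positive nuclei, the 2 calls became 1 with at least 3 marker genes, 29 without a filter, 5 without nuclei outside 2 MADs and 1 to 3 without 1 library (1 without IL-27 replicate 5 or saline replicate 1, 2 or 6). In all gated Muller nuclei the 5 calls became 11 with DESeq2, 0 without doublets, 0 with library totals, 124 without a filter and 0 to 5 without 1 library (0 without IL-27 replicate 5 or saline replicate 1 or 2, 1 without IL-27 replicate 4, 2 without IL-27 replicate 10). For the difference of responses, the 3 calls became 0 with DESeq2, 7 without doublets, 6 without pairing by depth, 33 without a filter, 19 without nuclei outside 2 MADs and 3 to 10 without 1 library (6 without IL-27 replicate 5 or 10, 10 without saline replicate 1).

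For the marker genes chosen by the other 4, the log2 difference of Adamts17 reversed to -0.38 without doublets and to -0.0336 with the Tbx5-list exclusion lifted (an alternative chosen after seeing the data), and ranged from -0.12 to 0.30 without 1 library. That of Syt10 reversed to -0.14 without pairing and ranged from -0.11 to 0.55, that of Hormad2 reversed to -0.0913 without doublets and ranged from -0.0461 to 0.49, and that of Psd2 reversed to -0.37 without doublets and to -0.25 over all nuclei of the Muller gate (chosen after seeing the data), with 0.06 to 0.45 without 1 library. Scara5 stayed at 0.52 to 0.72 without 1 library. It was at 0.73 without doublets and at 0.52 with the Tbx5-list exclusion lifted, higher in 6 of 6 libraries in each. Without pairing it was at 0.50 and over all nuclei of the Muller gate at 0.46, higher in 5 of 6 in each. Over all nuclei of the Muller gate Adamts17 (0.38) and Syt10 (0.37) were higher in 5 of 6 too. The difference in share between IL-27 and saline ranged from -3.62 to -6.72 points without 1 library. Of single genes, Chn2 (-0.0240) and Scara5 (-0.10) reversed in marker-positive nuclei with at least 3 marker genes, and Hormad2 in all gated nuclei, where it ranged from -0.199 to 0.0865 without 1 library, without IL-27 replicate 10 (0.0106) or saline replicate 6. No paired analysis was possible because the saline and IL-27 replicates share no numbers. Only 50 to 125 UMIs over the 6 libraries stood behind each value of a marker gene in the nuclei chosen by the other 4.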
